A study of Mus musculus with 5 samples.

Results

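Fatty acid and sebum lipid synthesis is described here through 38 genes chosen by name and grouped by role: the supply of carbon to fatty acids and their synthesis (7 genes), desaturases (6), enzymes that make wax esters, sterol esters and triacylglycerol (7), enzymes of the glycerolipid backbone (5), acyl-CoA synthetases with a peroxisomal oxidase (5), partners of the elongation cycle (3) and enzymes of the ceramide base (5). The Elovl elongases were not members. All 38 genes were found among the 21667 genes of the deposited table, and all 38 passed the filter on low values, as did 13764 genes in all.

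RNA was measured in total epidermis of wildtype C57BL/6 males at postnatal day 49, from shaved back skin, under topical treatment. Of the 5 libraries, 2 came from skin given 1.325 mM cAMP, the second messenger itself, 2 from skin given 10 µM forskolin, a plant diterpene that activates adenylyl cyclase and so raises cAMP in cells, and 1 from an untreated control. The labels state that the agents were applied 3 times over 5 days, suspended in DMSO and PLO lotion at 5 times an IC50 taken from the maker, and that the study asked how Creb signalling bears on the hair cycle. Whether the control skin got the lotion is not in the labels, nor is it stated that replicate libraries are from different animals. The p-values therefore measure library-to-library spread alone, and that spread may be technical. The single control library had no spread of its own.

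Fatty acids are built from acetyl-CoA, which the cell makes from exported citrate or from acetate, carboxylates to malonyl-CoA and condenses into palmitate. Palmitate is then desaturated, elongated and joined to glycerol, cholesterol or fatty alcohols. In skin the sebaceous gland, an appendage of the hair follicle, uses this pathway to fill its cells with wax esters, sterol esters and triacylglycerol before they burst as sebum, and the keratinocytes of the upper layers use part of it to make the ceramides of the barrier.

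Levels are given in rescaled CPM, the deposited CPM (a gene's reads per fixed number of reads in its library) divided by a size factor for each library, since the control library had a different make-up. Mitochondrial transcripts took 43.1% and 58.0% of listed CPM in cAMP 1 and 2, 50.7% and 45.6% in forskolin 1 and 2, and 69.3% in the control. The control had 9791 genes at 1 CPM or more, against 12867 to 13551 in the treated libraries. As deposited, the median tested gene was 1.66 (cAMP) and 1.69 (forskolin) higher than in the control on the log2 scale, and after rescaling this was 0.20 and 0.22. Depth, estimated from the offset that stands for 0, was 51700000 and 34200000 reads for cAMP 1 and 2, 48500000 and 50800000 for forskolin 1 and 2, and 49400000 for the control. The basal keratin Krt5 was at 1171 and 732 rescaled CPM in cAMP, 1658 and 1258 in forskolin and 1677 in the control, so this epidermal marker was high in every library.

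The promoters of the 4 genes with the smallest p for cAMP against forskolin among those with a promoter in the RefSeq table (GRCm38.p6) are shown as the sequence context of the genes with the most significant difference between the agents. Soat1 and Hsd17b12 passed the adjusted threshold and Acacb and Far2 did not. Each is a window of 300 bases around the annotated start, given 5′ to 3′. The Acacb window lies inside the gene as listed (chr5:114146535-114250761, plus strand), so it surrounds an internal start. Capitals mark 3 motifs searched on both strands: the CCAAT box (CCAAT or ATTGG), the GC box (GGGCGG or CCGCCC) and the core of the cAMP response element (TGACG or CGTCA). No base lay in more than 1 of them.
Soat1, chr1:156474279-156474578, minus strand: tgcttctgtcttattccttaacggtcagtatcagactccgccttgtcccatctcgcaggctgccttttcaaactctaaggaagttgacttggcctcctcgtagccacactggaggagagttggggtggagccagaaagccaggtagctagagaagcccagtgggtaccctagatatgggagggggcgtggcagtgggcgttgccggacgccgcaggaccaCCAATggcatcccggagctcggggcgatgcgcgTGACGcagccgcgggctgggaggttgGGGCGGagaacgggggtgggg
Hsd17b12, chr2:94157860-94158159, minus strand: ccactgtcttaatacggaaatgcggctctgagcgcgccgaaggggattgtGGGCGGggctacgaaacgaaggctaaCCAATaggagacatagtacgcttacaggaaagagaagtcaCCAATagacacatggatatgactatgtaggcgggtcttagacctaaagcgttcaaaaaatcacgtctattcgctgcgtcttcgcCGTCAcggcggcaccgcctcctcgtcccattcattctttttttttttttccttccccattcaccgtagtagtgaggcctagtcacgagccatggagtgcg
Acacb, chr5:114165268-114165567, plus strand: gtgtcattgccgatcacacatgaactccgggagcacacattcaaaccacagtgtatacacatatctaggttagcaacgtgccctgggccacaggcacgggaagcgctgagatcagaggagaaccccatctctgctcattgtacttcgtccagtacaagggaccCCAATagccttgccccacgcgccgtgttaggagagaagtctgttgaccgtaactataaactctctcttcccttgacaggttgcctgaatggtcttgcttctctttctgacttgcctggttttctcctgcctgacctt
Far2, chr6:148047166-148047465, plus strand: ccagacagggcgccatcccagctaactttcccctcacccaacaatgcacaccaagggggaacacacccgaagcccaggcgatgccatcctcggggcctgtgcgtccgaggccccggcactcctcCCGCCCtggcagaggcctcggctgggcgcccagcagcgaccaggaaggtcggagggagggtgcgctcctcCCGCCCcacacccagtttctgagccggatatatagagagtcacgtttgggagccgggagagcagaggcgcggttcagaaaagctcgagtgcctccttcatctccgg
The Soat1 window held a CCAAT box 30 bases before the start, a TGACG 4 bases after it and a GC box 30 bases after it. The Hsd17b12 window held CCAAT boxes 174 and 134 bases before the start, a GC box 200 bases before it and a CGTCA 50 bases before it. Acacb had a CCAAT box 87 bases before the start, and Far2 had GC boxes 126 and 56 bases before it. A match is a description of these letters and does not show that a factor binds.

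Promoters in the table covered 33 of the 38 genes. The CCAAT box was found in 20 of these 33 (60.6%), against 41.1% of all genes with a promoter and 42.6% of tested genes with one. The GC box was in 24 (72.7%), against 38.2% of all genes and 68.6% of tested genes, so its share was close to that of expressed genes. TGACG or its complement was in 10 (30.3%), against 35.1% of tested genes. The full cAMP response element TGACGTCA was in 0 of the 33, against 3.51% of tested genes. The E-box CACGTG was in 4 (12.1%), against 11.6% of tested genes. Each count of 0 says only that these letters do not occur in these windows.

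Most of the pathway stood higher in cAMP-treated epidermis than in forskolin-treated epidermis, but only 2 genes passed the test. The summed level of the 38 genes was 4922 and 7569 rescaled CPM in cAMP 1 and 2, against 2061 and 3112 in forskolin 1 and 2, with 1400 in the control. Both cAMP libraries lay above both forskolin libraries, a ratio of 2.42 between the means, and Scd1 was the largest single term of the sum in every library. In bulk RNA, fewer cells of a type and less RNA per cell cannot be told apart. In cAMP against forskolin, 2 of 38 genes were called higher and 0 lower (limma, Benjamini-Hochberg adjusted p under 0.05), where 0.312% of all tested genes were called higher, 0.124% lower and 0.436% in either direction. As deposited, 0 were called in either direction, where 0.189% of all tested genes were called higher and 0.189% lower. Unadjusted, 20 genes had p under 0.05 with a higher level and 0 with a lower one, where 6.18% of all tested genes were higher and 5.11% lower. The median log2 difference was 0.79 and 33 of 38 values were positive, against a median of -0.02 over all tested genes. In 22 genes (57.9%) every cAMP library was above every forskolin library, where 20.5% of all tested genes did this, and in 2 genes, Fads1 and Lpin2, the order was the reverse, where 21.1% of all did. The 2 calls rest on all 4 treated libraries but forskolin 2: without cAMP 1, without cAMP 2 or without forskolin 1, 0 genes were called, and without forskolin 2, 11 were.

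Against the untreated control, 18 genes were called higher in cAMP and 0 lower, where 15.5% of all tested genes were called higher, 7.22% lower and 22.7% in either direction. Unadjusted, 21 had p under 0.05 with a higher level and 1 with a lower one, where 23.8% of all tested genes were higher and 12.8% lower. In forskolin against the control, 7 were called higher and 1 lower, where 14.9% of all tested genes were called higher, 6.75% lower and 21.7% in either direction. Unadjusted, 15 were higher and 2 lower, where 23.9% of all tested genes were higher and 12.9% lower. The median log2 difference was 1.17 in cAMP and 0.33 in forskolin, against 0.20 and 0.22 over all tested genes. As deposited, 33 genes were called higher in cAMP and 34 in forskolin, where 65.1% and 66.3% of all tested genes were, and 0 were called lower in either, where 0.436% (cAMP) and 0.341% (forskolin) were. After rescaling, both cAMP libraries were above the control in 30 genes, where 48.9% of all tested genes were, and below it in 6, where 34.8% were. Both forskolin libraries were above the control in 23 genes, where 51.1% of all tested genes were, and below it in 10, where 35.3% were. Both comparisons share the control library, so their values are given side by side and not set against each other.

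**Figure D1:**
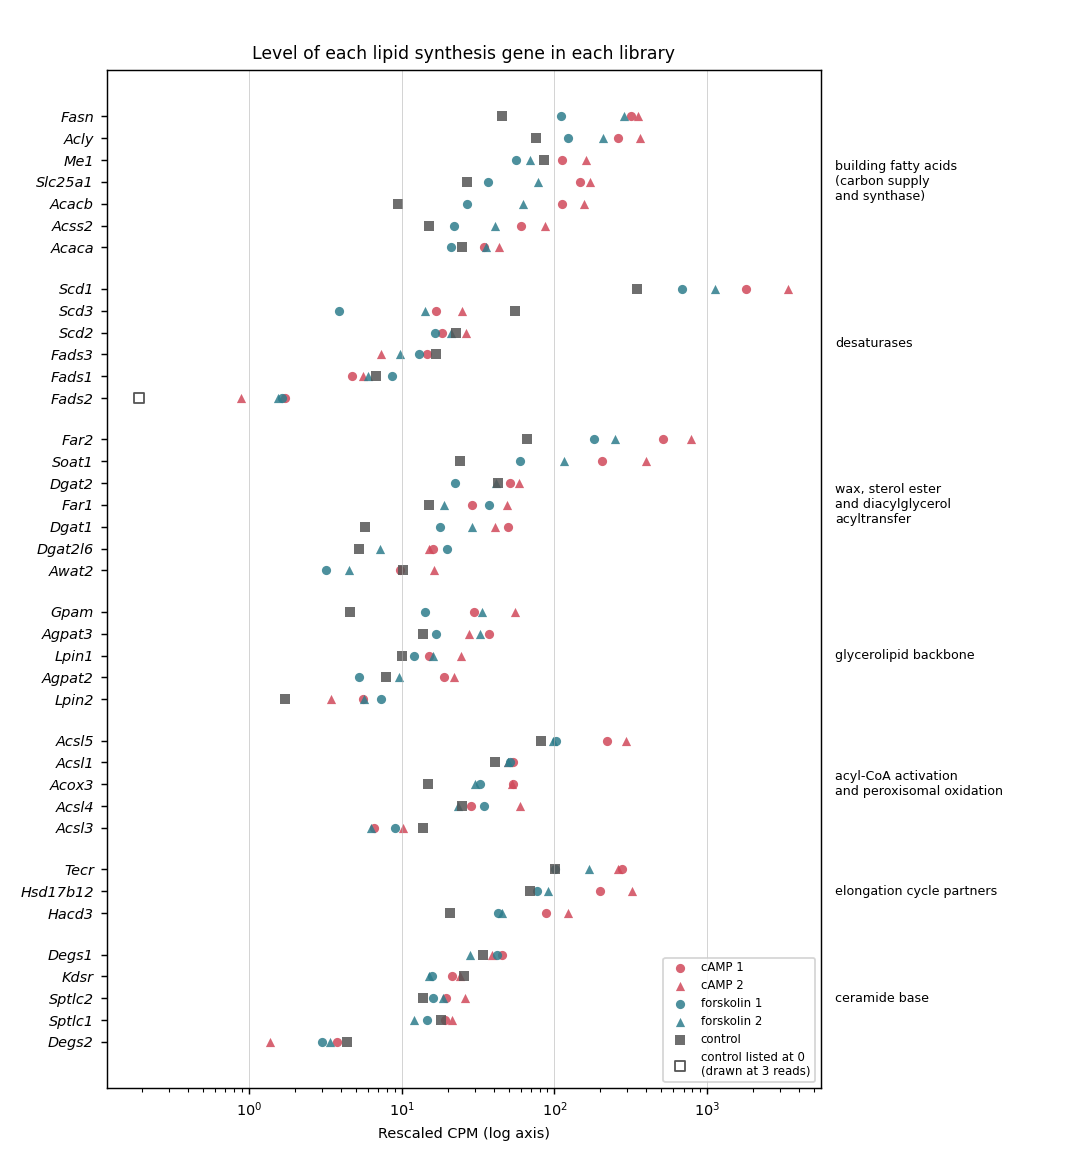
Level of each of the 38 genes in each of the 5 libraries, in rescaled CPM on a log axis, grouped by role from top to bottom. Red symbols are cAMP libraries, blue-green symbols forskolin libraries and grey squares the control, and the open square marks a control value listed at 0, drawn at the floor of 3 reads. Scd1 has the highest rescaled CPM in every library, with no scaling for length, and the red symbols lie right of the blue-green ones in 22 genes.

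**Figure D2:**
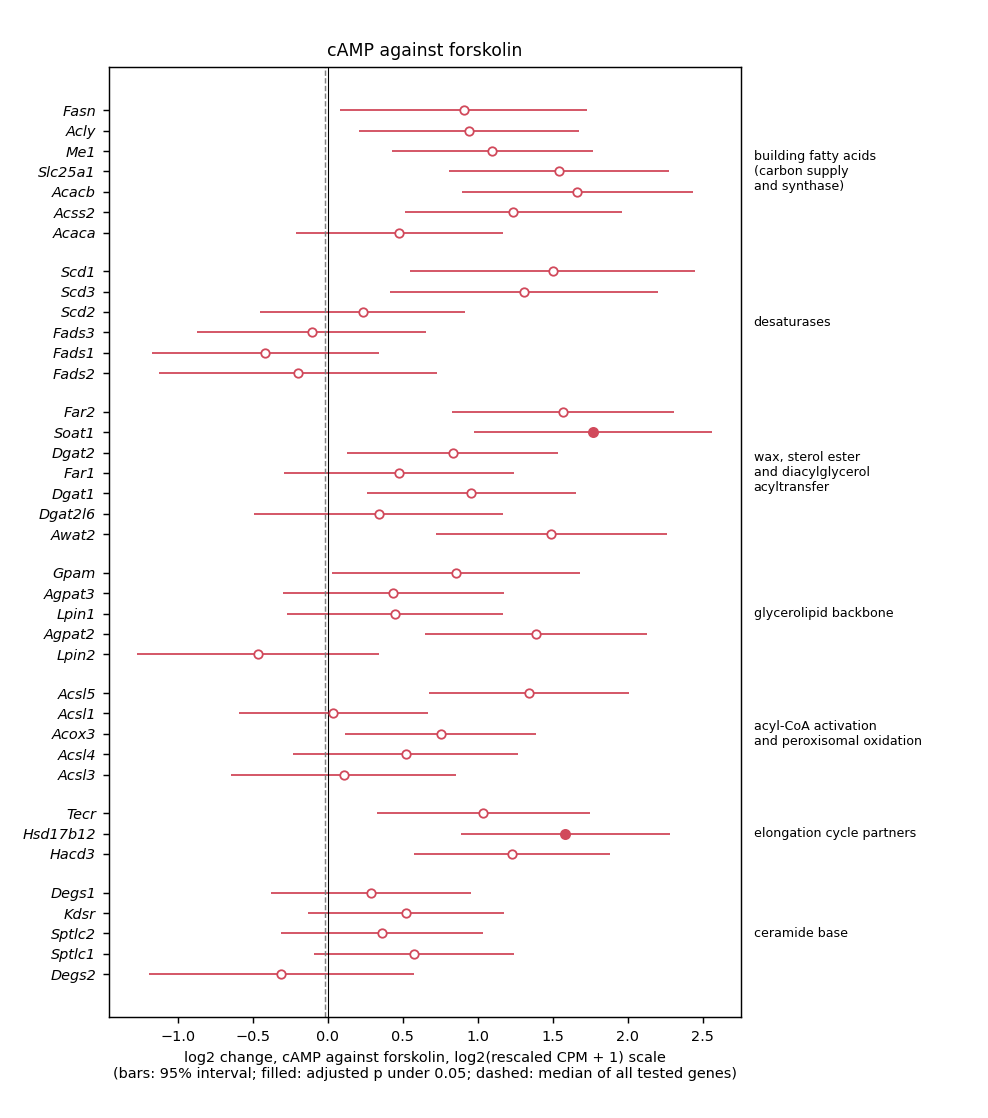
Log2 difference of each gene in cAMP against forskolin on the log2(rescaled CPM + 1) scale, with 95% intervals from limma. Filled points, Soat1 and Hsd17b12, passed the adjusted threshold, and the dashed line is the median of all tested genes at -0.02. The ceramide base genes have a median of 0.36, with 4 of 5 to the right of 0. The desaturases have 3 of 6 on that side, and the other roles lie mostly to the right.

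Counts by role stand beside 15.5% of all tested genes called higher in cAMP than in the control and 14.9% in forskolin. Among the genes that supply carbon and build the chain, 5 of 7 were higher in cAMP than in the control and 2 were higher in forskolin than in the control. Their summed level was 1039 and 1337 rescaled CPM in cAMP, 396 and 781 in forskolin and 282 in the control. Fasn, the synthase that makes palmitate (ENSMUSG00000025153, chr11:120805940-120824178, minus strand), had 315 and 354 rescaled CPM in cAMP, 110 and 287 in forskolin and 45.3 in the control. The control was lowest, and forskolin 2 lay near the cAMP libraries while forskolin 1 did not. The log2 difference was 0.91 ± 0.39 (SE) for cAMP against forskolin (limma adjusted p = 0.389), 2.86 ± 0.48 for cAMP against control (adjusted p = 0.000428) and 1.95 ± 0.48 for forskolin against control (adjusted p = 0.00838). Without forskolin 2 the forskolin call was lost, with a limma adjusted p of 0.0617.

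Acly, which splits exported citrate into acetyl-CoA (ENSMUSG00000020917, chr11:100476353-100528000, minus strand), had 259 and 365 rescaled CPM in cAMP, 123 and 207 in forskolin and 75.8 in the control. Both cAMP values were above both forskolin values, and cAMP averaged 312 ± 75 against 165 ± 59.6 in forskolin (SD, n = 2 each). It rose in cAMP against the control by 2.01 ± 0.43 (limma adjusted p = 0.00286), while the difference between the agents of 0.94 ± 0.35 did not pass (adjusted p = 0.305).

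The citrate carrier Slc25a1, which brings that citrate out of mitochondria, had 147 and 171 rescaled CPM in cAMP, 36.9 and 78.1 in forskolin and 26.6 in the control. Acacb, the acetyl-CoA carboxylase tied to the mitochondrial membrane (ENSMUSG00000042010, chr5:114146535-114250761, plus strand), had 112 and 155 in cAMP, 26.8 and 62.5 in forskolin and 9.39 in the control. Neither gene's groups overlapped, and in both the control was lowest. The difference between the agents was 1.54 ± 0.35 for Slc25a1 (limma adjusted p = 0.0619) and for Acacb 1.66 ± 0.37 (adjusted p = 0.0525), both just outside the threshold. Against the control, Acacb rose in cAMP by 3.68 ± 0.45 (adjusted p = 2.45e-05), a 14.2-fold ratio of the means, and in forskolin by 2.02 ± 0.45 (limma adjusted p = 0.00445).

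Acss2, which makes acetyl-CoA from acetate, had 60.1 and 86.3 rescaled CPM in cAMP, 22 and 40.8 in forskolin and 15.2 in the control, and was called higher in cAMP than in the control. Malic enzyme Me1, a source of NADPH, had 111 and 161 in cAMP, 55.6 and 69.3 in forskolin and 84.8 in the control, so the control lay between the agents and no call was made. Acaca, the cytosolic carboxylase that feeds the synthase, had 34.5 and 43.1 in cAMP, 21.1 and 35.5 in forskolin and 24.6 in the control. Its groups overlapped between the agents, unlike those of Acacb.

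Scd1, the stearoyl-CoA desaturase that makes oleate and palmitoleate (ENSMUSG00000037071, chr19:44394451-44407709, minus strand), had the highest rescaled CPM of the set in every library, before any scaling for length. It had 1808 and 3400 rescaled CPM in cAMP, 683 and 1127 in forskolin and 348 in the control. Every cAMP value was above every forskolin value and the control was lowest, but the cAMP libraries themselves differed widely (2604 ± 1125, SD, n = 2, against 905 ± 314 in forskolin). The difference between the agents was 1.5 ± 0.45 (95% interval 0.55 to 2.45, limma adjusted p = 0.19), and that between cAMP and the control was 2.83 ± 0.55 (adjusted p = 0.00151). Scd1, Scd2 and Scd3 are paralogues and neighbours on chromosome 19, and how reads that match more than 1 of them were counted is not stated, which leaves some uncertainty in the values of each.

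Scd3 (chr19:44203288-44244016, plus strand) had 16.7 and 24.8 rescaled CPM in cAMP, 3.88 and 14.3 in forskolin and 54.7 in the control. It was the reverse of Scd1 in that the control was highest. Scd3 was called lower in forskolin than in the control, at -2.69 ± 0.52 (limma adjusted p = 0.00166), but on the values as deposited the difference was -0.73 (adjusted p = 0.244), so this call rests on the scaling. Scd2 had 18.3 and 26.5 in cAMP, 16.5 and 21 in forskolin and 22.5 in the control, with overlapping groups.

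Fads1 and Fads2 act on polyunsaturated chains. Fads1, the delta-5 desaturase, had 4.72 and 5.56 rescaled CPM in cAMP, 8.57 and 5.97 in forskolin and 6.79 in the control. Fads3 had 14.6 and 7.33 in cAMP, 13.1 and 9.72 in forskolin and 16.8 in the control. Fads2, the delta-6 desaturase, was at most 1.71 in any library and was listed at 0 in the control, so the cAMP mean was at least 6.80-fold higher and the forskolin mean at least 8.35-fold higher than the floor of 3 reads in that library. Fads2 was thus lowest in the control, as Scd1 was. None of these 3 genes was called in any of the 3 comparisons (limma), and Fads2 had an unadjusted p of 0.0429 in cAMP and 0.0203 in forskolin against the control. Fads2 passed the filter on low values through treated libraries alone. Its low place in the control and these p-values are therefore not independent of the filter.

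In the final steps of lipid assembly, 5 of 7 genes were higher in cAMP than in the control, 3 were higher in forskolin than in the control, and Soat1 also differed between the agents. Together they summed to 875 and 1353 rescaled CPM in cAMP, 342 and 465 in forskolin and 169 in the control. Soat1, the enzyme that joins cholesterol to a fatty acid (ENSMUSG00000026600, chr1:156424525-156474331, minus strand), had 205 and 395 rescaled CPM in cAMP, 59.3 and 116 in forskolin and 24.2 in the control. The groups did not overlap, and all 4 treated libraries lay above the control. The difference was 1.77 ± 0.38 for cAMP against forskolin (limma adjusted p = 0.0466), 3.50 ± 0.46 for cAMP against control (adjusted p = 5.23e-05) and 1.74 ± 0.46 for forskolin against control (adjusted p = 0.0133). As deposited the first of these gave an adjusted p of 0.0723, so the call on the agents stands close to the threshold. Without forskolin 2 the forskolin call against the control was lost (limma adjusted p = 0.0538). Its promoter window is the first shown above.

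Far2, which reduces fatty acyl-CoA to the fatty alcohol of wax esters (ENSMUSG00000030303, chr6:148047259-148182758, plus strand), had 514 and 779 rescaled CPM in cAMP, 182 and 248 in forskolin and 65.6 in the control. The 3 groups did not overlap. The difference between the agents was 1.57 ± 0.35 (limma adjusted p = 0.0587), and against the control it was 3.25 ± 0.43 in cAMP (adjusted p = 5.3e-05) and 1.68 ± 0.43 in forskolin (adjusted p = 0.0105). Far1, its ubiquitous paralogue, had 28.7 and 48.8 in cAMP, 37.5 and 18.9 in forskolin and 15 in the control, with overlap between the agents. Far1 was called higher in cAMP than in the control (limma adjusted p = 0.049). This call was lost with quantile normalization, pseudocounts of 0.1 and 5 and no filter, and without cAMP 1 or cAMP 2.

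Dgat1, which adds the last fatty acid to triacylglycerol, had 49.8 and 40.7 rescaled CPM in cAMP, 17.7 and 29.0 in forskolin and 5.71 in the control. It rose against the control by 2.78 ± 0.40 in cAMP (limma adjusted p = 0.000125) and by 1.82 ± 0.40 in forskolin (adjusted p = 0.00436), and the difference between the agents was 0.96 ± 0.33 (adjusted p = 0.254). Dgat2, an enzyme of another family with the same reaction, had 51.4 and 58.2 in cAMP, 22.2 and 41.3 in forskolin and 42.5 in the control. Unlike Dgat1, it was not called against the control. Awat2, a wax ester synthase, had 9.72 and 16.2 in cAMP, 3.21 and 4.55 in forskolin and 10.2 in the control, so forskolin was lowest, and the difference between the agents was 1.49 ± 0.37 (limma adjusted p = 0.0805). Dgat2l6, a member of the same acyltransferase family, had 16.1 and 15 in cAMP, 19.8 and 7.22 in forskolin and 5.27 in the control. It was called higher in cAMP than in the control (limma adjusted p = 0.044). That call was lost with quantile normalization, pseudocounts of 0.1 and 5 and no filter, and without cAMP 1 or cAMP 2.

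The 5 genes of the glycerolipid backbone summed to 106 and 132 rescaled CPM in cAMP, 55.3 and 97.6 in forskolin and 38 in the control, and 2 were called higher in each agent than in the control. Gpam, which starts glycerolipid synthesis on the outer mitochondrial membrane, had 29.5 and 54.9 in cAMP, 14.1 and 33.5 in forskolin and 4.57 in the control. All 4 treated libraries were above the control, and the agents overlapped. Gpam rose by 2.89 ± 0.48 in cAMP (limma adjusted p = 0.000415) and by 2.04 ± 0.48 in forskolin (adjusted p = 0.00661). Agpat2, which makes phosphatidic acid, had 18.8 and 21.8 in cAMP, 5.23 and 9.64 in forskolin and 7.87 in the control. It was called higher in cAMP than in the control (limma adjusted p = 0.0422). That call was lost with quantile normalization, a pseudocount of 0.1 and no filter, and without cAMP 1 or cAMP 2. Lpin2, a phosphatidate phosphatase, had 5.56 and 3.42 in cAMP, 7.29 and 5.64 in forskolin and 1.71 in the control, and was called higher in forskolin by 1.45 ± 0.47 (limma adjusted p = 0.035). That call was lost with quantile normalization, a pseudocount of 5 and no filter, and without forskolin 1 or forskolin 2. As deposited, Lpin2 was at 0.547 CPM in the control, so it too passed the filter through treated libraries alone. Agpat3 had 37.3 and 27.6 in cAMP, 16.7 and 32.8 in forskolin and 13.7 in the control. Lpin1 had 15 and 24.6 in cAMP, 12 and 16 in forskolin and 10.1 in the control. Neither Agpat3 nor Lpin1 was called.

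Among the acyl-CoA synthetases, which charge free fatty acids with coenzyme A, Acsl5 differed most between the agents. Acsl5 (ENSMUSG00000024981, chr19:55253369-55296627, plus strand) had 222 and 294 rescaled CPM in cAMP, 103 and 97.7 in forskolin and 81.7 in the control. The groups did not overlap, with a difference between the agents of 1.34 ± 0.32 (limma adjusted p = 0.0711) and of 1.63 ± 0.39 for cAMP against control (adjusted p = 0.00619). Acsl1, at 53.7 and 49.4 in cAMP, 51.1 and 49.3 in forskolin and 40.7 in the control, was nearly level. Acsl4, the synthetase for arachidonate, had 28.5 and 59.1 in cAMP, 34.3 and 23.4 in forskolin and 24.8 in the control, and Acsl3 had 6.61 and 10.1 in cAMP, 9.09 and 6.25 in forskolin and 13.7 in the control. Both overlapped between the agents and neither was called. Acox3, a peroxisomal oxidase of branched chains, had 53.8 and 52.9 in cAMP, 32.4 and 30.1 in forskolin and 14.9 in the control, 3 separate levels with replicates close together, and it rose in cAMP against the control by 1.77 ± 0.37 (limma adjusted p = 0.00248).

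The 3 elongation partners, which carry out the steps that follow the condensation by an Elovl enzyme, were all higher in cAMP than in the control. They summed to 565 and 705 rescaled CPM in cAMP, 221 and 304 in forskolin and 191 in the control. Hsd17b12, which does the first reduction (ENSMUSG00000027195, chr2:94032689-94157964, minus strand), had 198 and 323 rescaled CPM in cAMP, 76.9 and 91.1 in forskolin and 69.4 in the control. The groups did not overlap, forskolin lay only slightly above the control, and the agents differed by 1.58 ± 0.33 (95% interval 0.89 to 2.28, limma adjusted p = 0.0442). As deposited this gave an adjusted p of 0.171 in limma. Against the control, Hsd17b12 rose in cAMP by 1.85 ± 0.41 (limma adjusted p = 0.00351).

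Hacd3, one of the dehydratases, had 88 and 123 rescaled CPM in cAMP, 42.6 and 45.1 in forskolin and 20.8 in the control. Its difference of 1.23 ± 0.31 between the agents did not pass (limma adjusted p = 0.0915), and that of 2.27 ± 0.38 between cAMP and the control did (adjusted p = 0.000426). Tecr, which does the last reduction (ENSMUSG00000031708, chr8:83571700-83594491, minus strand), had 279 and 259 in cAMP, 101 and 168 in forskolin and 101 in the control. Forskolin 1 was level with the control and forskolin 2 lay between that and cAMP. The Tecr call for cAMP against the control, 1.40 ± 0.41 (limma adjusted p = 0.0209), was lost with no filter, without cAMP 1 and without cAMP 2.

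The ceramide base genes, which start the synthesis of sphingolipids, had 0 of 5 called in each of the 3 comparisons. Their summed level was 109 and 112 rescaled CPM in cAMP, 91.3 and 77.2 in forskolin and 95.5 in the control. Sptlc1 and Sptlc2, subunits of serine palmitoyltransferase, stayed between 12.1 and 25.9 in every library. Kdsr, the next reductase, stayed between 15.2 and 25.4, and the desaturases Degs1 and Degs2 stayed between 27.9 and 45.3 and between 1.38 and 4.36. No gene of these 5 had an unadjusted p under 0.05 in any of the 3 comparisons (limma). In 3 of the 5 (60%) every cAMP library was above every forskolin library, where 20.5% of all tested genes did this. The median log2 difference of the 5 genes was 0.36 for cAMP against forskolin, 0.16 for cAMP against control and -0.36 for forskolin against control. That last median was 1.47 on the values as deposited, so its sign rests on the scaling.

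**Figure D3:**
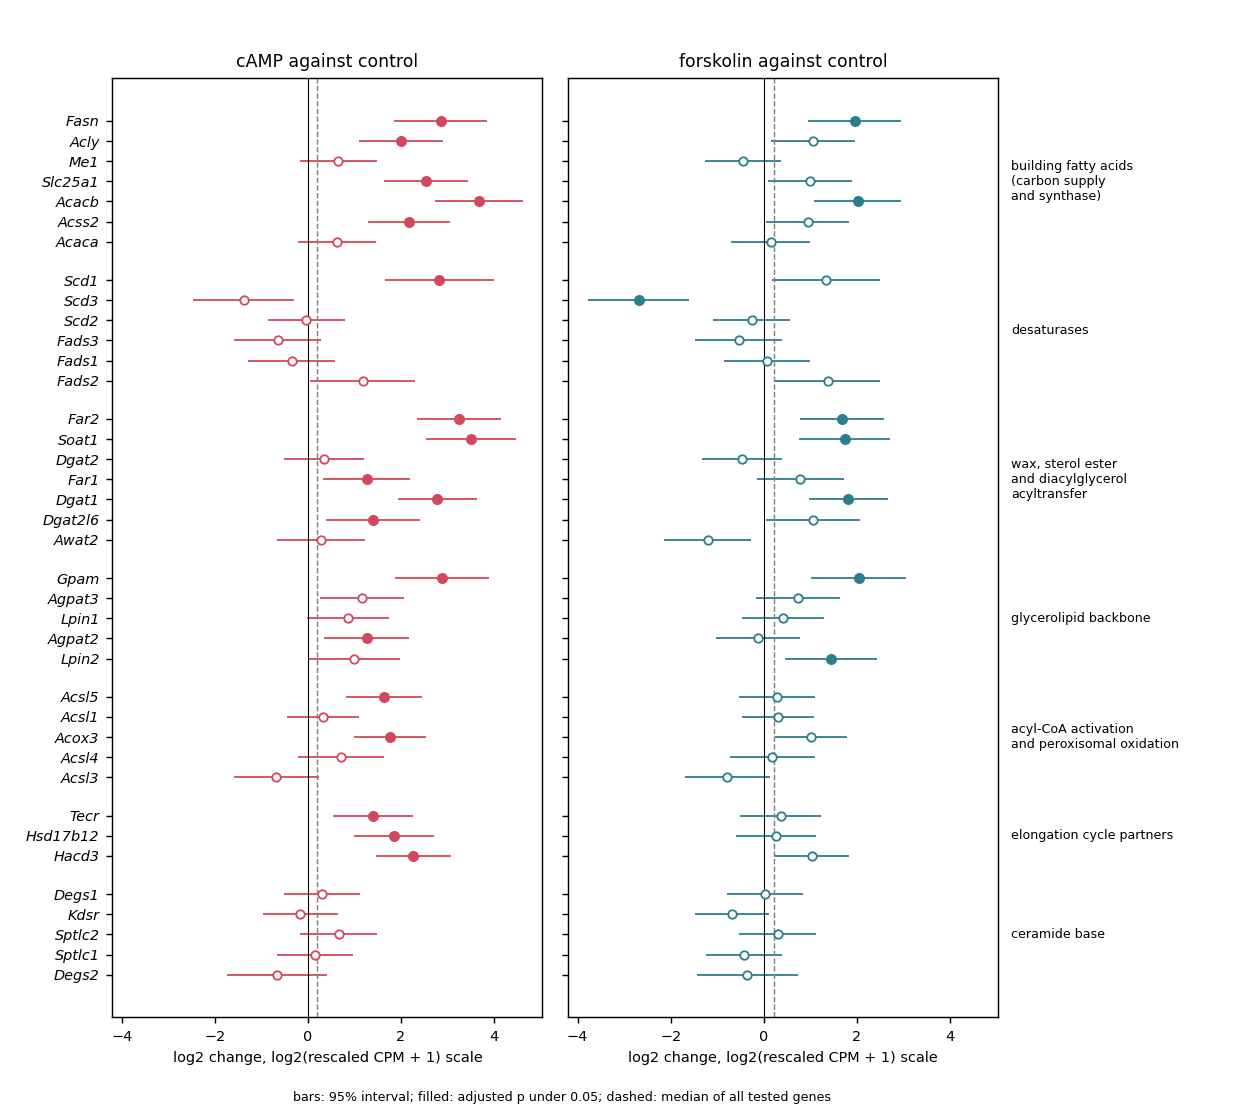
Log2 difference of each gene against the single control library, cAMP in one panel and forskolin in the other, on the log2(rescaled CPM + 1) scale with 95% intervals from limma. The dashed lines are the medians of all tested genes, at 0.20 for cAMP and 0.22 for forskolin, and filled points passed the adjusted threshold (18 genes higher in cAMP, 7 higher and 1 lower in forskolin). Acacb and Soat1 lie farthest to the right in cAMP.

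Between the libraries of a group, cAMP 2 was above cAMP 1 in 27 of 38 genes (71.1%, against 48.9% of all tested genes) with a median difference of 0.36 on the log2 scale, and forskolin 2 was above forskolin 1 in 24 of 38 (63.2%, against 51.7%) with a median of 0.32. Compared per length, in rescaled CPM per kb, Scd1 was highest in cAMP, at 374 and 704, and in forskolin, at 141 and 233. Tecr was highest in the control, at 87.3 per kb against 72.1 for Scd1. Far2 ranked 3 of 38 in cAMP, at 148 and 224 per kb, and 10 of 38 in the control, at 18.9.

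Lipid genes outside the 38, taken from lists of neighbouring steps, were counted in the same comparisons. Over all tested genes, 0.312% were called higher in cAMP than in forskolin and 0.124% lower. Against the control, 15.5% were higher and 7.22% lower in cAMP, and 14.9% higher and 6.75% lower in forskolin. The counts for the lists and markers that follow stand beside these shares. Of 19 tested regulators of lipid synthesis, 1 was higher in cAMP than in forskolin, 6 were higher in cAMP than in the control and 4 were higher in forskolin than in the control, with 0 lower in any. Mid1ip1, which promotes the joining of acetyl-CoA carboxylase into filaments, had 94.8 and 119 rescaled CPM in cAMP, 30.1 and 40.1 in forskolin and 13.5 in the control, and differed between the agents by 1.58 ± 0.31 (limma adjusted p = 0.0328). Srebf1, the master regulator of lipogenesis, had 125 and 118 in cAMP, 60.6 and 105 in forskolin and 26.4 in the control. The difference between the agents was 0.60 ± 0.33 (limma adjusted p = 0.53), while each rose against the control, by 2.16 ± 0.40 in cAMP (adjusted p = 0.00103) and by 1.56 ± 0.40 in forskolin (adjusted p = 0.011).

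Of the other steps, Hacd2, a dehydratase of the elongation cycle, had 203 and 284 rescaled CPM in cAMP, 73.2 and 77.4 in forskolin and 60.04 in the control, and differed between the agents by 1.66 ± 0.32 (limma adjusted p = 0.0308). Cers4, a ceramide synthase, had 399 and 565 in cAMP, 124 and 195 in forskolin and 68.9 in the control, at 1.60 ± 0.35 between the agents (limma adjusted p = 0.0494). Slc27a4, a fatty acid transporter, had 286 and 342 in cAMP, 77.6 and 139 in forskolin and 46.6 in the control, at 1.58 ± 0.34 (limma adjusted p = 0.0494). These were 1 of 16 tested in the sphingolipid list (Cers4) and 2 of 8 in the long-chain list (Hacd2, Slc27a4), with 0 called lower between the agents in either list.

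Against the control these lists held calls in both directions. In the long-chain list, 5 of 8 were higher and 3 lower in cAMP, and 3 were higher and 0 lower in forskolin. The 3 lower in cAMP, named after their values were seen, were Hacd4, Slc27a6 and Slc27a3. In the sphingolipid list, 3 of 16 were higher and 2 lower in cAMP, and 3 were higher and 2 lower in forskolin, with a median log2 difference of -0.27 in cAMP and -0.49 in forskolin. The share called higher, 18.75% in each agent, was close to that of all tested genes (15.5% in cAMP and 14.9% in forskolin). Cers3, a synthase of very long chain ceramides, was called lower in both. In the list of other glycerolipid and sterol ester enzymes, 4 of 9 were higher and 1 lower in cAMP, 3 were higher and 1 lower in forskolin, and 0 were called between the agents (2 with an unadjusted p under 0.05 in limma, both higher). The lower gene was Agpat4, at 7.49 and 7.92 rescaled CPM in cAMP, 14.1 and 9.25 in forskolin and 32.9 in the control. Mgll, which cleaves monoacylglycerol, was among the higher, at 828 and 849 in cAMP, 222 and 569.5 in forskolin and 86.8 in the control. On the values as deposited none of these 3 lists had a gene called lower, and both negative medians were positive (1.49 in cAMP and 1.38 in forskolin).

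Of 19 tested genes of fatty acid beta-oxidation, which takes fatty acids apart, 12 were higher in cAMP than in the control, 3 were higher in forskolin than in the control and 0 were called between the agents, although 14 had an unadjusted p under 0.05 in limma with a higher level (6.18% of all tested genes did) and 16 had every cAMP library above every forskolin library (20.5% of all did). Of 7 tested genes that supply NADPH, the reductant of the synthase, 5 were higher in cAMP than in the control, 1 was higher in forskolin than in the control and 0 were called between the agents (4 with an unadjusted p under 0.05 in limma and a higher level). The 1 in forskolin was 14.3% of that list, close to the 14.9% of all tested genes.

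Summed markers of sebocytes, like the 38 genes, were highest in cAMP and lowest in the control. Between cAMP 1 and cAMP 2 they differed in order. The 38 genes summed higher in cAMP 2 and the markers in cAMP 1. Of 12 sebocyte markers, none a member, 11 were tested, and their summed level was 2524 and 2274 rescaled CPM in cAMP, 936 and 1421 in forskolin and 354 in the control. Of these 11, 4 were higher in cAMP than in forskolin, 10 were higher in cAMP than in the control and 9 were higher in forskolin than in the control. Elovl3, an elongase of the sebaceous gland, had 269 and 260 in cAMP, 50.01 and 91.1 in forskolin and 21.1 in the control (cAMP against forskolin 1.95 ± 0.34, limma adjusted p = 0.0171). Pparg, the receptor that drives sebocyte maturation, had 34.3 and 37.4 in cAMP, 14.8 and 15.3 in forskolin and was listed at 0 in the control. Cyp2g1 too was listed at 0 there, so both passed the filter on low values through treated libraries alone. In forskolin 2 the sebocyte markers were above those of forskolin 1 in 10 of 11, and in cAMP 2 above cAMP 1 in 5 of 11. The part of the sebocyte markers in the differences of the 38 genes was not tested.

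Adipocyte markers, 9 of 10 listed genes in the table, summed to 29.3 and 52.4 rescaled CPM in cAMP, 11.5 and 15.7 in forskolin and 37.2 in the control. Adipoq, the hormone of fat cells, was at most 1.27 in any library, and Lep was at 0 in cAMP 2 and forskolin 1. Neither passed the filter on low values. Adig was called higher in cAMP than in forskolin (19.0 and 21.5 against 4.84 and 6.57). Of 5 tested markers, 2 were higher and 1 lower in cAMP than in the control, and 1 was higher and 2 lower in forskolin. As deposited, 2 were higher and 0 lower in each agent. Cfd had 0.965 and 4.44 in cAMP, 1.17 and 1.09 in forskolin and 13.5 in the control. Car3 had 3.94 and 19.2 in cAMP, 2.44 and 4.82 in forskolin and 18.5 in the control. Suprabasal keratinocyte markers, 8 genes, summed to 1640 and 1047 in cAMP, 1955 and 1871 in forskolin and 5098 in the control, and 7 of 8 were lower in cAMP and 6 of 8 lower in forskolin than in the control (2 in each as deposited). Dermal fibroblast markers, 7 genes, summed to 69.5 and 245 in cAMP, 6.64 and 156 in forskolin and 456 in the control. Of the 6 tested, 1 was lower in cAMP and 4 were lower in forskolin than in the control (0 and 3 as deposited). Markers of the hair follicle sheath and bulge summed to 969 and 569 in cAMP, 833 and 715 in forskolin and 1095 in the control, and melanocyte markers to 148 and 222 in cAMP, 64.9 and 180.0 in forskolin and 82.2 in the control. Of 7 follicle markers, 1 was lower in forskolin than in the control (0 as deposited). Of 6 melanocyte markers, 2 were higher in cAMP than in the control (4 as deposited). Basal keratinocyte markers summed to 3111 and 2089 in cAMP, 3907 and 3334 in forskolin and 3559 in the control. Of these 7 genes, 3 were called lower in cAMP than in the control (0 as deposited). T cell markers summed to 304 and 315 in cAMP, 506 and 343 in forskolin and 339.5 in the control. Langerhans cell markers summed to 450 and 264 in cAMP, 536 and 386 in forskolin and 291 in the control, with 1 of 6 called higher in forskolin than in the control. Skeletal muscle markers summed to 58.5 and 145 in cAMP, 81.03 and 86.0 in forskolin and 210.0 in the control, with 2 of 6 called lower in each agent than in the control and 0 lower as deposited. The part of these cell types in the differences was not tested.

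**Figure D4:**
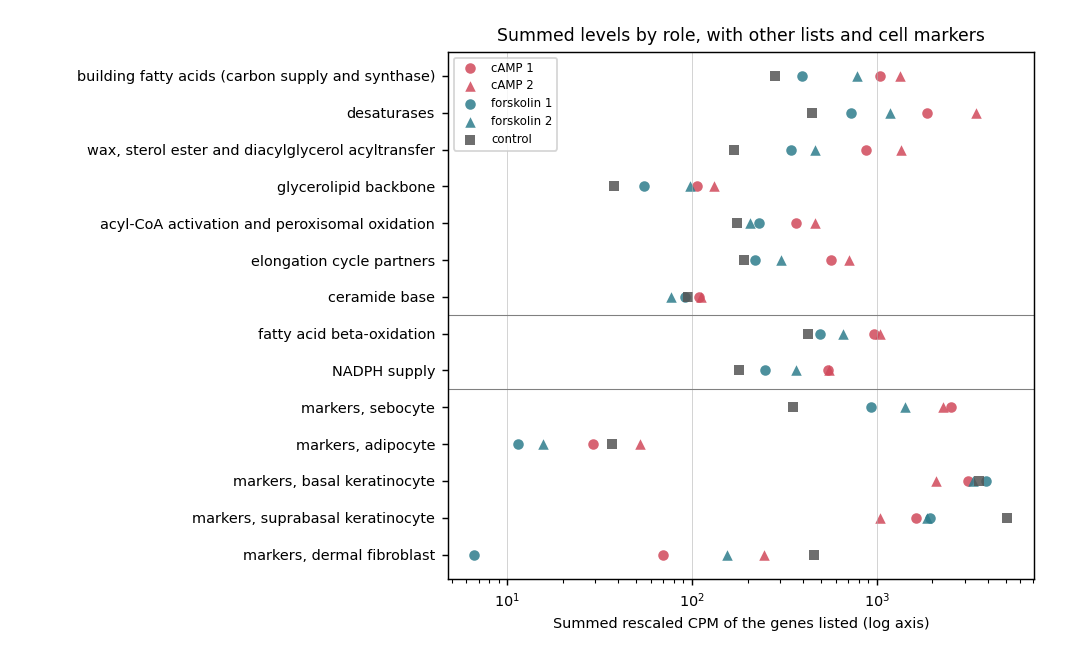
Summed rescaled CPM of the genes listed, on a log axis, for each role of the 38 genes, for 2 neighbouring gene lists and for 5 sets of cell type markers, with 1 symbol per library. Red symbols are cAMP libraries, blue-green symbols forskolin libraries and grey squares the control. The cAMP libraries lie highest and the control lowest in the sebocyte markers, in both neighbouring gene lists (beta-oxidation and NADPH supply) and in each role except the ceramide base. There the symbols cluster.

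At the transcript level, protein-coding transcripts made up 90.01% and 92% of the CPM of the 38 genes in cAMP, 90.3% and 91.8% in forskolin and 89.9% in the control. Within single genes the split differed. The Soat1-001 coding transcript made up 68.1% and 61.7% of Soat1 in cAMP, 71.2% and 55.7% in forskolin and 9.28% in the control, where Soat1-003, also coding, made up 84.0%. The coding transcript Hsd17b12-001 made up 23.8% and 16.9% of Hsd17b12 in cAMP, 15.4% and 22.1% in forskolin and 1.32% in the control. Processed transcripts made up all of the rest. Acacb-003, a retained intron transcript, made up 78.0% and 49.4% of Acacb in cAMP, 48.3% and 28.8% in forskolin and 100% in the control. Agpat2-002, a processed transcript, made up 85.1% and 90.9% of Agpat2 in cAMP, 87.3% and 25.1% in forskolin and 83.6% in the control. The coding transcript Dgat1-001 made up 8.645% to 61.6% of Dgat1 in the treated libraries and was listed at 0 in the control. There Dgat1-007, a retained intron transcript, made up 43.4% and Dgat1-006, a nonsense-mediated decay transcript, 56.6%. The levels of Acacb, Hsd17b12, Agpat2 and Dgat1 are thus in part or mostly of RNA that does not code for the enzymes. In the control that RNA made up most or all of each. It also made up most of Hsd17b12 in every treated library, and most of Agpat2 in each but forskolin 2. Coding Hsd17b12-001 had 47.2 and 54.5 rescaled CPM in cAMP and 11.8 and 20.1 in forskolin. The processed Hsd17b12-002 had 80.9 and 121 in cAMP and 12.6 and 1.32 in forskolin. How reads were shared among overlapping transcripts was not given in the sources used here, and no test was run on these shares.

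**Figure D5:**
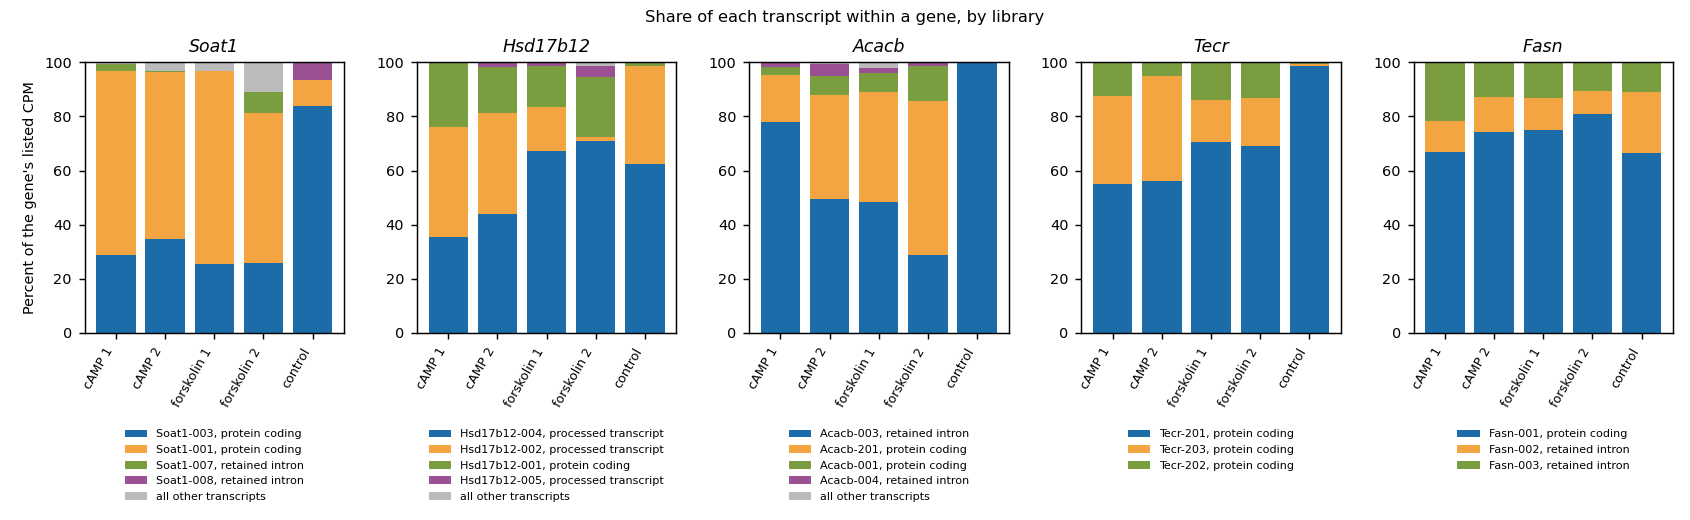
Percent of the listed CPM of 5 genes taken by each of their transcripts in each library, cAMP at the left and the control at the right, stacked to 100%. The control bars of Soat1, Acacb and Tecr are made almost wholly or mostly of 1 transcript (84.0% Soat1-003, 100% Acacb-003, 98.8% Tecr-201), and the treated bars are split among several.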

How the data were processed

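The authors deposited CPM (a transcript's reads per fixed number of reads in its library) for 59869 transcripts, a unit read from the values. The submitters' processing notes name STAR, Partek and bcl2fastq 2.17. Tool order, settings, build and annotation are not given in the sources used here. Coordinates were compared with GENCODE M21 (GRCm38): 98.3% of transcripts are listed there, and 90.8% of those have the same start and end. Per the labels' protocols, total epidermis was trypsinized overnight and a stranded mRNA kit was used. Transcripts were summed per Ensembl gene, and 3 rows with no gene held at most 0.0679% of a library. If the offset in place of 0 stands for 0.0001 read, then of the genes with 0.5 to 20 estimated reads, 59.6% to 75.7% were whole to within 0.1 (20% by chance). Whole reads were thus not recovered, no count model was run, and depth is an estimate. A floor of 3 reads, 0.190 rescaled CPM in the control, covers counting error only.

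Values were divided by size factors (median of ratios over 11935 genes: cAMP 1.60 and 1.09, forskolin 1.39 and 1.29, control 0.319). Genes with at least 1 CPM in 2 libraries were tested with limma 3.58.1 in R 4.3.3 on log2(rescaled CPM + 1), which understates low genes' changes, with 5 libraries and 3 groups in 1 fit, 2-sided, Benjamini-Hochberg adjustment over all 13764 genes at 0.05, 2 residual and 16.3 prior degrees of freedom. The filter was on deposited CPM and there was 1 control library. A gene at 1 CPM in the control alone could not pass, but one at 1 CPM in 2 treated libraries alone could. Shares called higher or lower than the control, of all genes and of the lists, may thus lean toward higher. The control was assumed to vary like the treated libraries. The scripts were tested on simulated data. The members and lists were chosen with earlier results of these data known. By rule, members called in cAMP against forskolin and the 8 of highest mean were given per library; the other members shown per library were chosen after their values were seen. Alternatives were the deposited values, quantile and nuclear-read scaling, pseudocounts of 0.1 and 5, no filter or one of 10 CPM, a replicate block, treated libraries alone, and leaving out each library.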

Additional observations from a re-analysis of the deposited data

How the results depend on the processing

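For cAMP against forskolin, of 38 genes, 2 were called higher, and the count was 0 on the values as deposited, with scaling to nuclear reads, with a pseudocount of 0.1 and with no filter, 1 with quantile normalization, 4 with a pseudocount of 5, and 8 with a filter of at least 10 CPM. Leaving out 1 library gave 0 to 11. The median log2 difference stayed positive under each of these, at 0.60 to 1.08 when 1 library was left out. The call of Soat1 and that of Hsd17b12 were each lost under 8 alternatives (limma adjusted p from 3.27e-05 to 0.665 and from 0.00493 to 0.665). With the replicate block the count was 8. Over all tested genes, the deviations of same-numbered libraries from their group means had a correlation of -0.07. With only 2 pairs, this cannot decide whether the numbers pair the libraries. For forskolin against control the 7 higher calls became 34 as deposited and 0 with no filter, with 5 to 9 when 1 library was left out. The 1 lower call became 0 as deposited and 0 with no filter, and stayed at 1 when 1 library was left out. For cAMP against control the 18 higher calls became 33 as deposited and 11 with no filter, with 14 to 19 when 1 library was left out. The 0 lower calls became 1 with a pseudocount of 5 and were 0 to 1 when 1 library was left out (1 without forskolin 1 or without forskolin 2). In that comparison 11 of the 18 were called under every alternative run. The calls of Scd1, Acly and Gpam were lost with no filter only, and those of Agpat2, Dgat2l6, Far1 and Tecr under more alternatives. No called value changed sign. The cause of these changes was not tested. The single control library limits every comparison with it.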
